A study of Mus musculus with 6 samples.

Results

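Arntl, Per1, Per2, Per3, Cry1, Nr1d1, Nr1d2, Dbp, Tef and Usp2 are genes of the circadian clock and of its output, and they are described here in the conjunctival epithelium of mice with and without Spdef. The set was selected on the signal difference of Usp2 between genotypes: Usp2, a ubiquitin protease whose transcript is known to cycle over the day in mouse tissues, was lower in Spdef -/- than in Spdef +/+. The other 9 genes were listed for their place in the clock, with earlier results of the same comparison known. All 10 were found on the array by gene ID, as 27 of its 45101 probe sets and as 10 of 18096 named genes.

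RNA was measured on Affymetrix mouse expression arrays, 3 for Spdef +/+ and 3 for Spdef -/- mice, all C57BL/6 and 8 weeks of age. Spdef is an ETS transcription factor that goblet cells, the mucus-secreting cells of the conjunctiva, require. Each array held a pool from 1 male and 1 female, 1 eye each. Frozen eyes with their lids were cut at 6 µm and stained, and the part of the epithelium next to the fornix, the fold between lid and eyeball, was taken by laser. The sources used here do not give how the Spdef allele was made, in which cells it was lost, or at which hour of day the eyes were collected. Nothing in the labels ties an animal of 1 group to an animal of the other.

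The clock of mammalian cells is a feedback loop of transcription. Arntl (Bmal1) and Clock form a dimer that binds E-boxes and switches on the Per and Cry genes, whose proteins then repress that dimer. The nuclear receptors Nr1d1 and Nr1d2 (Rev-erb alpha and beta), also driven through E-boxes, repress Arntl and Cry1 at ROR elements, where Rora activates. Dbp and Tef, PAR bZIP factors, carry the rhythm to output genes with a D-box, where Nfil3 represses, and the transcripts of Nr1d1, Dbp and the Per genes peak at other hours than that of Arntl.

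These control elements were looked for in the RefSeq promoter windows of the genes (build GRCm38.p6), each running from 250 bases before to 50 after a transcription start. Windows were held for 9 of the 10 genes, 12 in all; Per2 is named only. The letters searched, on either strand, were CACGTG (E-box), CACGTT (E'-box), TTATGTAA and TTACGTAA (D-box), TAGGTCA (the core of a ROR element) and TGACGTC (the core of a cAMP element). Of all 32817 RefSeq windows of this length, 7.15% held the E-box, 4.69% the E'-box, 1.05% a D-box, 2.61% the ROR core and 3.21% the cAMP core. The windows below are shown because they carry the named elements of the repressors Per1, Per3 and Cry1, of the receptor gene Nr1d1, of the output factor Tef and of Usp2. They are written along the sense strand, 5′ to 3′, with every match in capitals.
Per1, chr11:69098699-69098998, plus strand: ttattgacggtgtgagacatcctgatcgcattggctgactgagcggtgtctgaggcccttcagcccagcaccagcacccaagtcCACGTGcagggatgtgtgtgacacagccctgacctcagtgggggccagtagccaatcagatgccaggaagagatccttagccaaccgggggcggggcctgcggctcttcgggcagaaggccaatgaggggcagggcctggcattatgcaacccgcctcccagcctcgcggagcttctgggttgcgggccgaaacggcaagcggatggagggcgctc
Per3, chr4:151044616-151044915, minus strand: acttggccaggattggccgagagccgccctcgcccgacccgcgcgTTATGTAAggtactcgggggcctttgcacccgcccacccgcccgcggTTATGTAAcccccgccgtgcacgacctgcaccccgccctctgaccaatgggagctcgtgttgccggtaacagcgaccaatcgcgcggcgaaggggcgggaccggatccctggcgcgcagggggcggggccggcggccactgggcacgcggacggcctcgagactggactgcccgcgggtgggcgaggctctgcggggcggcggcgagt
Cry1, chr10:85185005-85185304, minus strand: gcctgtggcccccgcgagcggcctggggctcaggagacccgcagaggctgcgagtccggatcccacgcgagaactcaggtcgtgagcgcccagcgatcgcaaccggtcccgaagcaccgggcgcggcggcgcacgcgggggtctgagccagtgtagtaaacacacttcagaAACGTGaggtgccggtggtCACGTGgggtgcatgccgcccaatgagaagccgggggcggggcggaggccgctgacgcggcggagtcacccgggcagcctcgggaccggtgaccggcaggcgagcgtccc
Nr1d1, chr11:98775328-98775627, minus strand: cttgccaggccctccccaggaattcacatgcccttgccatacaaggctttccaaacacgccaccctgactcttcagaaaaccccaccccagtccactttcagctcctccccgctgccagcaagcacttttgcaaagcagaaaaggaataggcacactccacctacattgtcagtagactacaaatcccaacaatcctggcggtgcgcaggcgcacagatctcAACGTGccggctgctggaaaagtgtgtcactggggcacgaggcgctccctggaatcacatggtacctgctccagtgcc
Tef, chr15:81802423-81802722, plus strand: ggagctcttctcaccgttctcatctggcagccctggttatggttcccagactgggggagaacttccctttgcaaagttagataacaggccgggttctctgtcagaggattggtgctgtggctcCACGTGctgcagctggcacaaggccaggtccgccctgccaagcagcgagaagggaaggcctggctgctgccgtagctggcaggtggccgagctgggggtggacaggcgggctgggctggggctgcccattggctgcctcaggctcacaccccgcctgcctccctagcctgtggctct
Usp2, chr9:44084670-44084969, plus strand: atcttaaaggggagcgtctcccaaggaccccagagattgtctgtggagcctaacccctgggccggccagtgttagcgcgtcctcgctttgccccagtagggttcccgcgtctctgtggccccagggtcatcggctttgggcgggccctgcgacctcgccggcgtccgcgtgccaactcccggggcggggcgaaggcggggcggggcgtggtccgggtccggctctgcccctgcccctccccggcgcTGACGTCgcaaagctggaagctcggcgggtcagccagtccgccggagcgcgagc

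The E-box of this Per1 window begins 166 bases before the start, and a second Per1 window held a cAMP core 132 bases before its start. Per3 held 2 D-boxes, at 205 and 158 bases before the start. In Cry1 an E'-box lay 79 and an E-box 60 bases before the start, and in Nr1d1 an E'-box lay 28 bases before it. Tef had an E-box in each of its 2 windows, at 127 and 138 bases. A ROR core began at base 31 after the start in 1 of the 2 Arntl windows, and a cAMP core lay 4 bases before the Usp2 start. The windows of Dbp and Nr1d2 held none of the letters searched. These are matches of letters and not sites of binding, and a window without a match says nothing of a factor's binding elsewhere.

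Across these genes, the transcripts of 3 Per genes, both Rev-erb genes, Dbp and Tef were lower in Spdef -/-, Cry1 was higher, and Arntl overlapped between the groups. The falls ran from 1.45-fold for Per2 to 2.92-fold for Nr1d1, and the rise of Cry1 was 1.62-fold (folds of mean log2 signals, 3 arrays a group). A gene was called where the limma adjusted p over all 11899 tested genes was under 0.05, and a gene was tested if the array's detection call was Present on at least 3 of 6 arrays. Of the 9 genes other than Usp2, all tested, 7 fell, 1 rose and 1 was not called; over all tested genes 24.0% were called lower and 15.8% higher. The median log2 difference of the 9 was -0.63, and that of all tested genes -0.06. Since Usp2's fall in this same comparison picked the set, no support is drawn from these counts. In bulk tissue, fewer cells of a type and less RNA per cell cannot be told apart. As the hour of collection is not given, a difference of hour between the groups cannot be told apart from genotype either.

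For 8 of the 10 genes, Usp2 included, every Spdef -/- array lay below every Spdef +/+ array, and for Cry1 every Spdef -/- array lay above. Groups were apart in this way, lower, for 32.7% of all tested genes and, higher, for 22.6%. Of the 27 probe sets, 21 were tested, of which 18 were lower, 2 of them of Usp2, 1 was higher and 2 were not called by their own adjusted p over all tested probe sets. Over all tested probe sets 20.1% were called lower and 13.4% higher. Another 4 probe sets were Present on no array, and the remaining 2 were Present on 1.

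**Figure D1:**
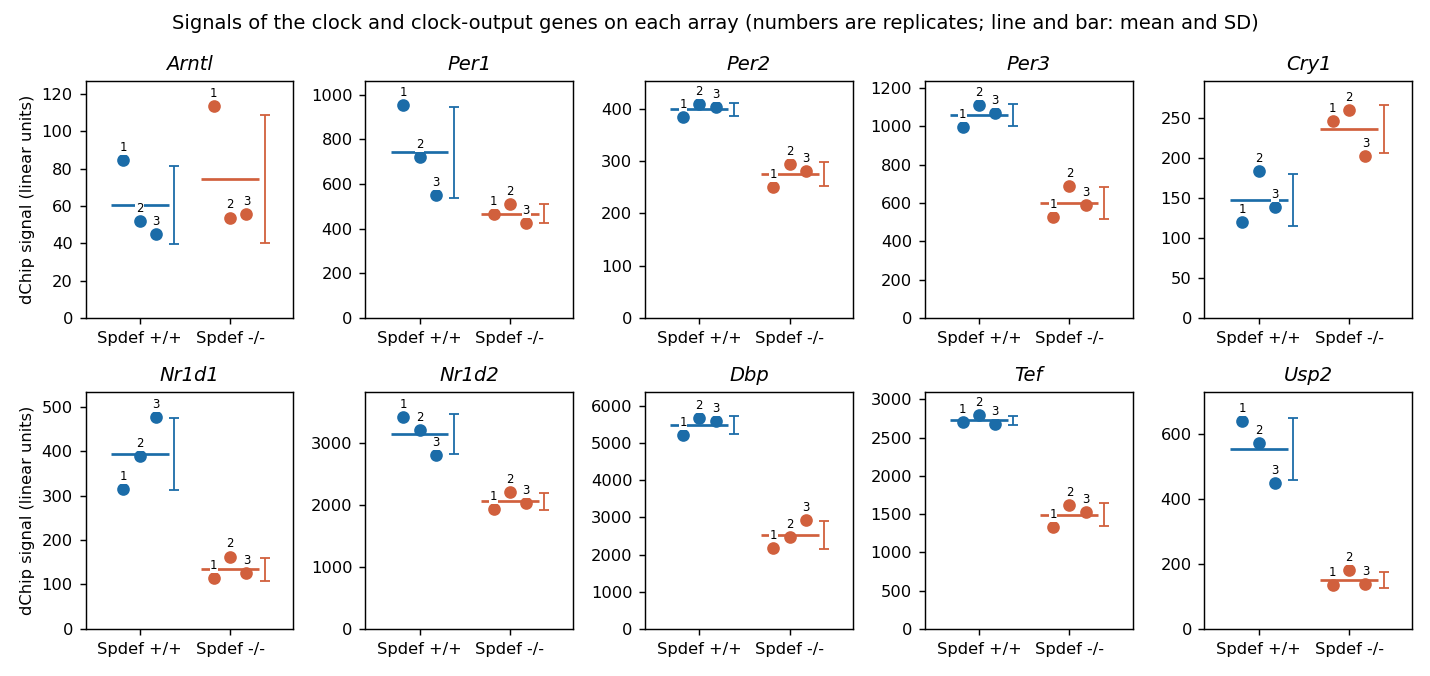
dChip signal (linear units) of the probe set that stands for each of the 10 genes, by genotype; points are arrays numbered by replicate, the line is the mean and the bar 1 SD of 3 arrays. Signals of Per1, Per2, Per3, Nr1d1, Nr1d2, Dbp, Tef and Usp2 lie lower on every Spdef -/- array, those of Cry1 higher, and those of Arntl overlap.

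**Figure D2:**
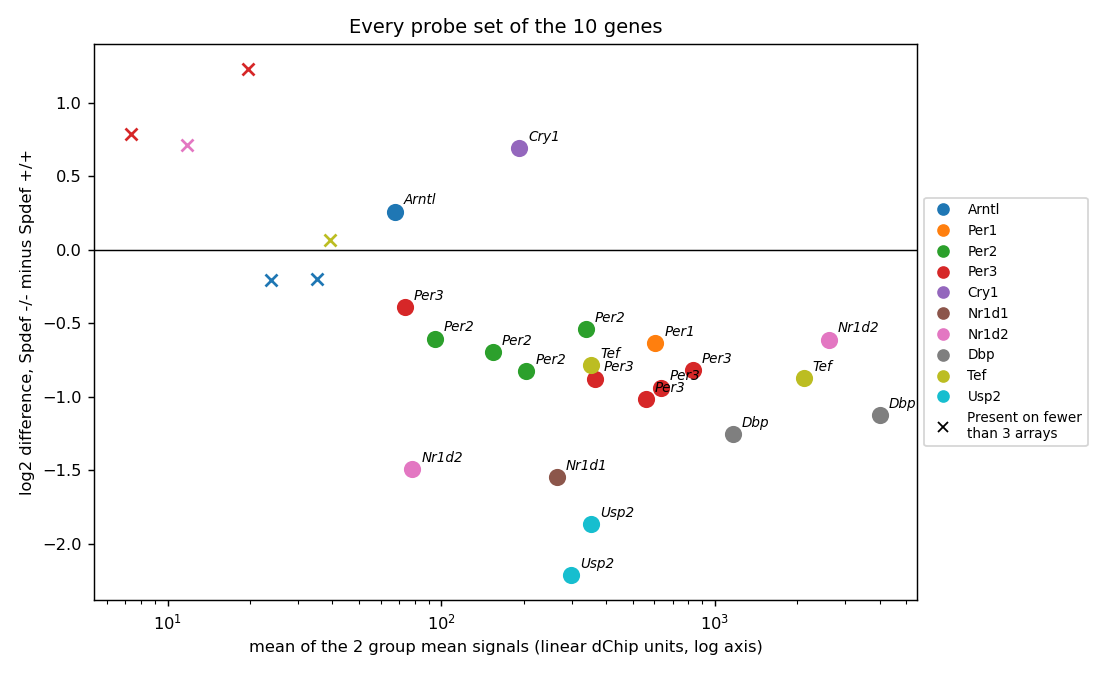
Every probe set of the 10 genes, with the mean of the group mean signals on a log axis and the log2 difference, Spdef -/- minus Spdef +/+, on the other; crosses were Present on fewer than 3 arrays. Tested probe sets of a gene lie on the same side of 0, and the crosses lie at lower signals than the tested probe sets.

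The activator of the set showed no difference beyond its spread. Arntl (chromosome 7, 113178471 to 113314126) read 84.5, 52.1 and 45.1 on the Spdef +/+ arrays, replicates 1 to 3, and 113.7, 53.8 and 55.8 on the Spdef -/- arrays. Its groups overlapped, and in each group replicate 1 stood above the other arrays. The log2 difference was 0.26 ± 0.35 (SE; limma adjusted p = 0.59), and its other 2 probe sets were Present on no more than 1 array.

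Among the repressors of the loop, the Per genes were lower in Spdef -/-. Per1 (chromosome 11, 69095108 to 69109965), a Per gene that glucocorticoid and cAMP signalling induce, read 955, 720.2 and 551 in Spdef +/+ and 466, 512 and 424 in Spdef -/-. The groups did not overlap, but the Spdef +/+ arrays were spread over most of the range. The log2 difference was -0.63 ± 0.20 (limma adjusted p = 0.045), and -0.43 without Spdef +/+ replicate 1. The call was lost on leaving out any array except Spdef +/+ replicate 3 (adjusted p of 0.069 to 0.108), and with no filter on dim probe sets (adjusted p = 0.105). As 1 probe set among all tested probe sets its adjusted p was 0.051.

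Per2 (chromosome 1, 91415977 to 91459351), a Per gene whose mutation disturbs daily rhythms in mice, read 384, 408 and 403 in Spdef +/+ and 249.9, 294 and 282 in Spdef -/-. These groups were narrow and far apart. The log2 difference was -0.54 ± 0.09 (limma adjusted p = 0.0048), and all 4 Per2 probe sets fell, by -0.54 to -0.83 on the log2 scale. The adjusted p was 0.105 when arrays were centred on the spiked bacterial controls.

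Per3 (chromosome 4, 150997018 to 151044707), a Per gene that mice can lose with little change of rhythm, read 995, 1109 and 1066 in Spdef +/+ and 525, 689 and 591 in Spdef -/-. Every Spdef -/- array stood well under the lowest Spdef +/+ array. The log2 difference was -0.82 ± 0.12 (limma adjusted p = 0.0028). All 5 tested Per3 probe sets fell, by -0.39 to -1.01, and the other 2 were Present on no array. The window with 2 D-boxes printed above belongs to this gene.

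Cry1 (chromosome 10, 85131700 to 85185054), a strong repressor of the dimer, was the 1 gene of the set that rose. It read 121, 184 and 139 in Spdef +/+ and 247, 261 and 203 in Spdef -/-, so the highest Spdef +/+ array lay close under the lowest Spdef -/- array. The log2 difference was 0.69 ± 0.18 (limma adjusted p = 0.022), from a single probe set. The call was lost on leaving out any of 4 arrays, with the direction kept. The adjusted p was then 0.067 (difference 0.56) for Spdef +/+ replicate 1, 0.068 for Spdef +/+ replicate 3, 0.065 for Spdef -/- replicate 1 and 0.066 for Spdef -/- replicate 2.

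The Rev-erb receptors, which repress Arntl and Cry1, were both lower. Nr1d1 (chromosome 11, 98767932 to 98775377) read 314, 389 and 476 in Spdef +/+ and 114, 163 and 127 in Spdef -/-, and was not called Present on 1 Spdef -/- array. The lowest Spdef +/+ signal was far above the highest Spdef -/- signal. Its log2 difference of -1.54 ± 0.19 (limma adjusted p = 0.0018) was the furthest from 0 among the 9 genes other than Usp2. Nr1d2 (chromosome 14, 18204056 to 18239106) read 3429, 3217 and 2801 in Spdef +/+ and 1932, 2214 and 2033 in Spdef -/-. Here too the groups were apart, with a log2 difference of -0.61 ± 0.10 (limma adjusted p = 0.0055). A second, dimmer Nr1d2 probe set differed by -1.49 (adjusted p = 0.0018 over probe sets), and the third was Present on no array.

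Dbp and Tef, the PAR bZIP factors of the set, fell. Dbp (chromosome 7, 45705100 to 45710203), a direct target of the dimer with a steep daily rhythm, read 5214, 5659 and 5588 in Spdef +/+ and 2184, 2482 and 2931 in Spdef -/-. No Spdef -/- array came near the Spdef +/+ arrays, and the log2 difference was -1.13 ± 0.12 (limma adjusted p = 0.0011). Its other probe set differed by -1.26. Tef (chromosome 15, 81802673 to 81826863) read 2705, 2797 and 2678 in Spdef +/+ and 1329, 1621 and 1532 in Spdef -/-, a log2 difference of -0.87 ± 0.10 (limma adjusted p = 0.0012). A second Tef probe set differed by -0.79, and the third was Present on 1 array and not tested.

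Usp2 (chromosome 9, 44067021 to 44095627), whose values picked the set and carry no test here, had 2 probe sets. The brighter read 639, 573 and 449.7 in Spdef +/+ and 136, 180.03 and 139 in Spdef -/-, a log2 difference of -1.87. The dimmer read 521, 488 and 454 in Spdef +/+ and 103, 148 and 76.2 in Spdef -/-, a difference of -2.21. On each probe set every Spdef +/+ array lay above every Spdef -/- array. In the authors' deposited table of 153 probe sets, 1 was of these 10 genes, the dimmer Usp2 probe set, with a fold of -4.48 (bounds -3.31 and -6.82), a difference of means of -378.59 and an unadjusted p of 0.000264. The authors' deposited table kept probe sets with the lower bound of the fold over 3, a difference over 20 and p at most 0.01, and held 0 probe sets of the other clock genes listed below.

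Within Spdef -/- the arrays stood in a similar order for most of the genes that fell, and within Spdef +/+ they did not. Of the 8 genes that were lower in Spdef -/-, Usp2 included, Spdef -/- replicate 1 had the lowest signal of its group in 7 and replicate 2 the highest in 7. Over all tested genes, Spdef -/- replicate 1 was the lowest of its group in 27.2% and replicate 2 the highest in 27.3%, and over the genes called lower these shares were 28.3% and 40.4%. In Spdef +/+ the 8 genes were not ordered alike: replicate 1 was lowest in 4 and highest in 3, and replicate 2 was lowest in 0. Arntl deviated from its group mean by 0.53 on replicate 1 of Spdef +/+ and by 0.70 on replicate 1 of Spdef -/- on the log2 scale. These are descriptions of 3 arrays a group, with no test.

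**Figure D3:**
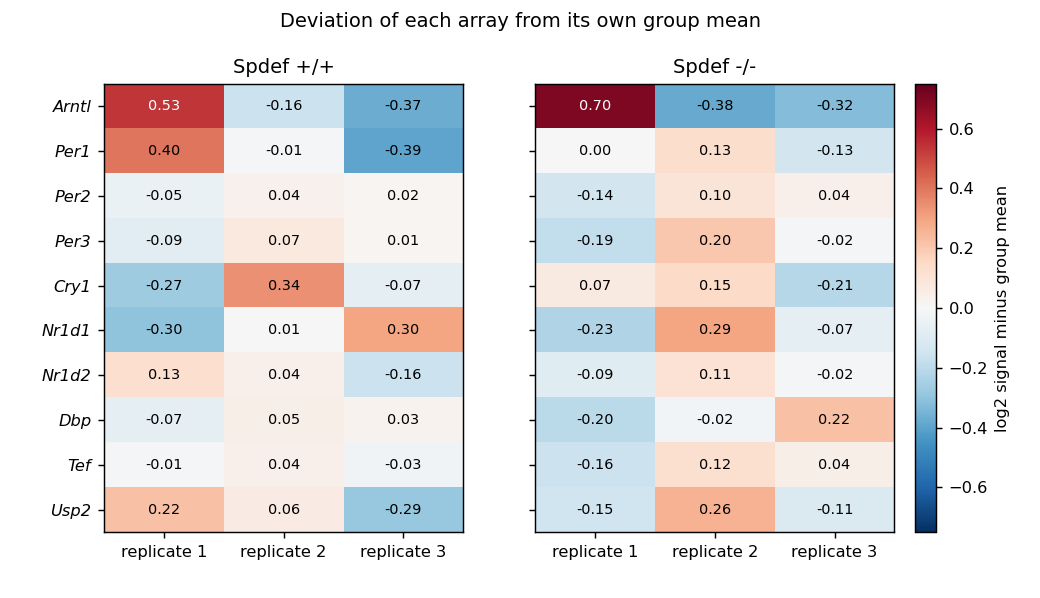
Log2 signal of each array minus the mean of its own group, for the 10 genes in rows and the 3 replicates of each genotype in columns; colour and printed value are the same quantity. Replicate 1 of Spdef -/- is negative for Per2, Per3, Nr1d1, Nr1d2, Dbp, Tef and Usp2, and Arntl is positive on replicate 1 of each group (0.53 and 0.70).

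The genes whose 6 array values ran closest to those of Usp2 were not clock genes of these lists. Likeness was measured as the root mean square difference of log2 signals, each gene centred on its own mean over the 6 arrays. This measure keeps the size of the difference between genotypes. It therefore cannot tell whether a gene with a smaller fall ran with Usp2 over the arrays. The 5 closest of 11898 genes were Fgf1 (0.094), Me3 (0.109), Tmc7 (0.112), Rap1gap (0.124) and Aox3 (0.140). Fgf1, for example, read 191, 181 and 153 in Spdef +/+ and 41.7, 49.7 and 44.9 in Spdef -/-. Of the clock genes of the set, Nr1d1 was the closest, at 0.360 and rank 199, and Dbp followed at 0.447 and rank 334. The 5 closest genes differed between genotypes by -1.94 to -1.78 on the log2 scale, beside -1.87 for Usp2, and are given as a description.

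Outside the set, 32 further clock genes were listed and 29 tested, of which 8 fell, 4 rose and 17 were not called, shares near those over all tested genes. Their median log2 difference was -0.08. Bhlhe41, Rorb and Fbxl21 were on the array and not tested.

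Of the other activators, Clock, the partner of Arntl, had a log2 difference of 0.46 ± 0.09 (limma adjusted p = 0.010) on its brightest probe set. Its signals there were 913, 769 and 762 in Spdef +/+ and 1140.2, 1108 and 1103 in Spdef -/-, with the groups apart. The other 3 tested Clock probe sets were not called and differed by -0.30 to 0.10, and the mean of its probe sets differed by 0.01 (adjusted p = 0.94). Npas2, a paralog of Clock that can take its place, differed by -0.28 (adjusted p = 0.24) and Arntl2 by 0.02 (adjusted p = 0.89).

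Among the other repressors, Cry2 fell while Cry1 rose. Cry2, a weaker repressor that opposes Cry1 in setting the length of the cycle, read 284, 285 and 294 in Spdef +/+ and 149, 194 and 156 in Spdef -/-, with no overlap. Its log2 difference was -0.80 ± 0.11 (limma adjusted p = 0.0029). Bhlhe40 (-0.10), Ciart (-0.19) and Cipc (0.23), further repressors of the dimer, were not called. Ciart was called lower on leaving out Spdef -/- replicate 3 (-0.30, adjusted p = 0.036) and on weighting the arrays (adjusted p = 0.041). Timeless, which binds Cry and Per proteins and is also a part of the replication fork, read 99.1, 144 and 113.0 in Spdef +/+ and 271, 359 and 433 in Spdef -/-. It rose by 1.57 ± 0.21 (limma adjusted p = 0.0021), and all 7 tested proliferation markers rose beside it, where 15.8% of all tested genes were called higher. The summed signal of these markers went from 2945 to 3230.1 in Spdef +/+ to 8368 to 11138 in Spdef -/-. Their part in the Timeless result was not tested.

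Rora, a nuclear receptor that activates at the elements that Rev-erb receptors repress, was lower. It read 517, 557 and 491 in Spdef +/+ and 288, 289 and 399 in Spdef -/-, a log2 difference of -0.70 ± 0.14 (limma adjusted p = 0.011). All 7 of its tested probe sets fell, by -0.40 to -1.23.

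Of the D-box factors, Nfil3, the repressor that competes with Dbp and Tef, read 57.8, 33.6 and 22.4 in Spdef +/+ and 109.3, 109.1 and 91.8 in Spdef -/-. It was Present on 1 Spdef +/+ array and on all Spdef -/- arrays, and it rose by 1.55 ± 0.32 (limma adjusted p = 0.011). Nfil3 is also made by leukocytes, and 7 of 10 tested leukocyte markers rose with it, where 15.8% of all tested genes were called higher. The summed signal of the leukocyte markers rose from 2188 to 2576 in Spdef +/+ to 6308 to 11765 in Spdef -/-. Of this rise S100a8 and S100a9, calcium-binding proteins of neutrophils, made up most: they summed to 165 to 226 in Spdef +/+ and 3407 to 8359 in Spdef -/-, and the other 8 tested markers to 1911 to 2344 and 2858 to 3568. Cma1, a mast cell protease on the same list, fell by 1.66 on the log2 scale (limma adjusted p = 0.013). The part of these markers in the Nfil3 result was not tested. Hlf, the third PAR bZIP factor, differed by -0.30 ± 0.13 (limma adjusted p = 0.11) on its brightest probe set and by -0.57 (adjusted p = 0.0097 over probe sets) on the other, so its probe sets disagree on the call. Without Spdef -/- replicate 2 the brightest probe set was called too (-0.42, adjusted p = 0.035).

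Of 11 tested kinases, ubiquitin ligases and phosphatases that act on clock proteins, 1 rose, 2 fell and 8 were not called. The shares over all tested genes were 15.8% higher and 24.0% lower. Csnk1d and Csnk1e, the casein kinases that mark Per proteins for decay, differed by 0.01 and -0.08 on their brightest probe sets. Of 6 tested Csnk1d probe sets, 2 others were called higher (0.76 and 0.32, adjusted p = 0.013 and 0.036 over probe sets), and the mean of its probe sets differed by 0.26 (limma adjusted p = 0.028). Of 6 tested probe sets of Gsk3b, a kinase that acts on Per and Rev-erb proteins, the brightest differed by 0.00 and 1 other was called lower (-0.73, adjusted p = 0.013 over probe sets). Btrc, the F-box protein that takes up phosphorylated Per, differed by -1.41 ± 0.19 (limma adjusted p = 0.0022), from 141, 150.2 and 121 in Spdef +/+ to 38.9, 59.6 and 59.4 in Spdef -/-. Only 2 of its 5 tested probe sets passed, and under quantile normalization another probe set stood for the gene and differed by -0.08 (adjusted p = 0.69). Csnk1a1, another casein kinase, differed by 0.39 (limma adjusted p = 0.018), a call that did not hold when the mean of its probe sets was used (adjusted p = 0.67). The call was also lost without Spdef +/+ replicate 1 or 2 (adjusted p = 0.057 and 0.061).

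Clock-controlled outputs gave 3 falls and 0 rises among 6 tested genes, with 3 not called. Beside this small list, 24.0% of all tested genes were called lower and 15.8% higher. Alas1, the rate-limiting enzyme of heme synthesis, read 3298, 2890.1 and 2606 in Spdef +/+ and 939, 1268 and 1122 in Spdef -/-. All 3 of its probe sets fell, the brightest by -1.41 ± 0.14 (limma adjusted p = 0.00090). Tspan4, a tetraspanin, fell 1.99-fold (limma adjusted p = 0.00063). Nampt, the rate-limiting enzyme of NAD salvage, differed by -0.55 ± 0.11 (limma adjusted p = 0.0090; 0.099 with centring on bacterial controls). Noct (-0.20), Wee1 (0.15) and Tsc22d3 (-0.60; adjusted p = 0.065) were not called. The other tested Noct probe set differed the other way, by 0.41 (limma adjusted p = 0.14 over probe sets). On weighting the arrays Noct was called lower (-0.30, limma adjusted p = 0.0497). Of 4 tested Tsc22d3 probe sets, 1 other than the brightest was called lower (-0.68, adjusted p = 0.030 over probe sets). The gene was called lower on leaving out Spdef +/+ replicate 3 or Spdef -/- replicate 2 (adjusted p = 0.029 and 0.036).

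**Figure D4:**
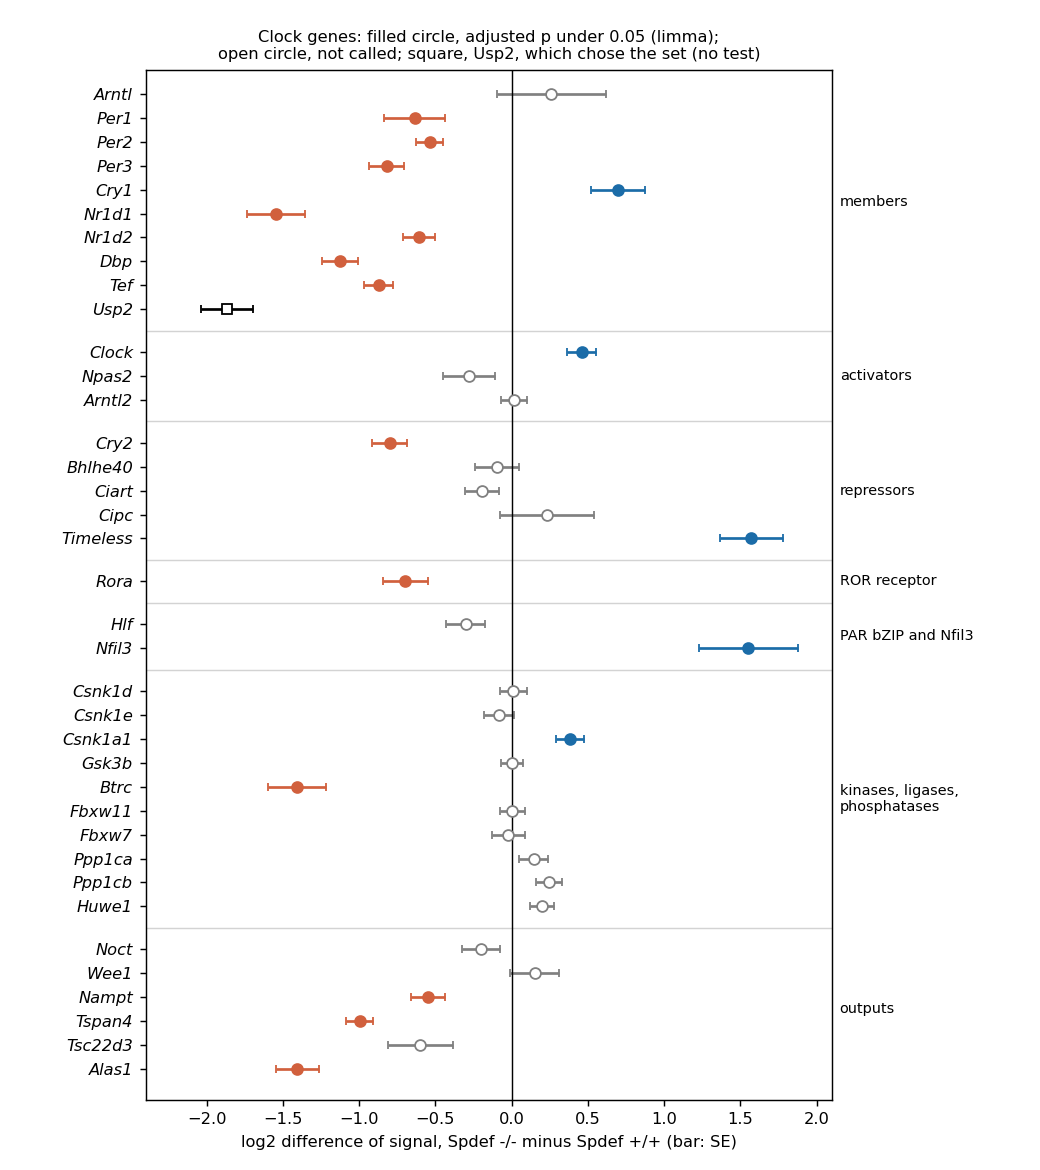
Log2 difference of signal, Spdef -/- minus Spdef +/+, with 1 SE, for the 10 genes and for further tested clock genes by role; filled circles passed a limma adjusted p of 0.05, open circles did not, and the square is Usp2, given with no test. The Per and Rev-erb genes, Dbp, Tef, Cry2, Rora and Alas1 lie left of 0, and Cry1, Timeless and Nfil3 right of it.

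Genes that respond to hormones, temperature and cAMP, cues that can set or shift peripheral clocks, did not move in 1 direction. Of 29 tested genes on these lists, leaving out Per1, 8 rose and 5 fell, with a median log2 difference of 0.17. By list the median was -0.30 for glucocorticoid, 0.16 for heat and cold, and 0.46 for cAMP and CREB responsive genes, the last with Per1. Over all tested genes 15.8% were called higher and 24.0% lower, so calls both ways are not particular to these lists. Of 13 tested glucocorticoid-responsive genes, Klf9, a transcription factor that is itself rhythmic, fell by 1.20 on the log2 scale (limma adjusted p = 0.00079) and Sult1a1 fell by 1.85 (adjusted p = 0.0027). Cdkn1a (1.20), Mt2 (0.46) and Lcn2 (2.46) rose. Fkbp5, a common read-out of the glucocorticoid receptor, differed by -0.40 (adjusted p = 0.22), Sgk1 by -0.30 (adjusted p = 0.058; 0.022 without Spdef -/- replicate 3) and Tsc22d3 by -0.60 (adjusted p = 0.065). Also not called were Zbtb16 (-0.35), Pdk4 (-1.14), Dusp1 (0.70, limma adjusted p = 0.055), Errfi1 (0.18) and Mt1 (0.17).

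The RNA-binding proteins Cirbp and Rbm3, both induced by mild cold, moved apart. Cirbp read 1305, 1041 and 1395 in Spdef +/+ and 575, 716 and 647 in Spdef -/-, a difference of -0.94 ± 0.14 (limma adjusted p = 0.0033). Rbm3 read 195, 131 and 128 in Spdef +/+ and 219, 284 and 237 in Spdef -/-, a difference of 0.72 ± 0.19 (limma adjusted p = 0.024), a call lost without Spdef +/+ replicate 2 or 3 or Spdef -/- replicate 2 (adjusted p of 0.067 to 0.075). The other 6 tested heat and cold responsive genes were not called. Of 10 tested cAMP and CREB responsive genes, 4 rose (Fos by 1.37, Egr1 by 1.15, Fosb by 1.47 and Nr4a2 by 0.48) and 3 fell (Sik1 by -1.09, Pde4d by -0.72 and Per1 as above). The shares over all tested genes were 15.8% higher and 24.0% lower. The call of Nr4a2 was lost without Spdef +/+ replicate 1 or 3 or Spdef -/- replicate 1 or 3 (adjusted p of 0.054 to 0.093).

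Markers of the captured cell types differed between the genotypes. Beside the counts below, 24.0% of all tested genes were called lower and 15.8% higher. Spdef read 801, 689 and 587 in Spdef +/+ and 1.0, 3.6 and 2.9, not Present, in Spdef -/-, and all 11 tested goblet cell markers fell, from a summed signal of 36019 to 43478 to one of 3222 to 4939. Muc5ac, the secreted mucin that defines goblet cells, read 15579 to 17081 in Spdef +/+ and 7.76 to 23.1 in Spdef -/-. Leukocyte and proliferation markers rose as given above, and 4 of 6 stromal fibroblast markers fell (summed signal of 26131 to 39740.1 against 16523 to 19403). Of 8 conjunctival surface markers, 3 rose and 2 fell, with summed signals of 61284 to 64177 against 67520 to 79857, and of 6 basal markers 2 rose and 2 fell. Among the calls in these lists, those of Krt19, Muc1, Krt5, Itgb4, Dcn and Itgax were each lost on leaving out 1 or more of the arrays in turn (adjusted p of 0.056 to 0.142). The part of these changes in the clock gene differences was not tested.

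**Figure D5:**
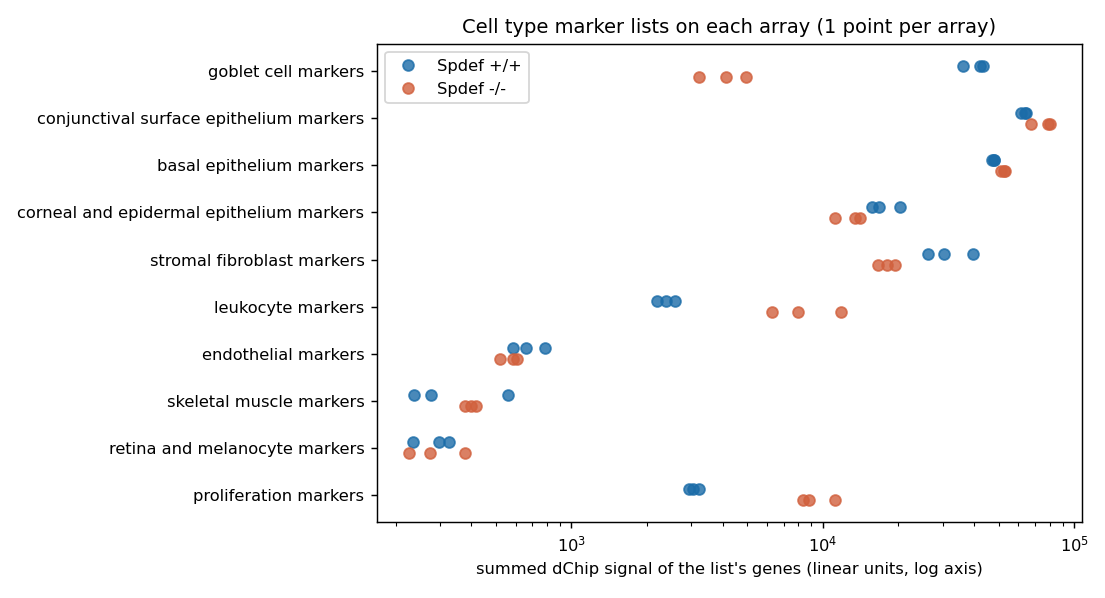
Summed dChip signal (linear units, log axis) of each cell type marker list on each array, by genotype. Goblet cell markers lie lower in Spdef -/- (3222 to 4939 against 36019 to 43478), and leukocyte and proliferation markers lie higher.

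Measures of the arrays moved little with genotype apart from detection. Probe sets called Present numbered 24692 ± 126 in Spdef +/+ and 23340 ± 43.4 in Spdef -/- (SD, n = 3; p = 0.1 by a two-sided exact permutation test, which for 3 against 3 arrays can go no lower). The 3′ over 5′ signal of the Gapdh and actin controls, a sign of RNA integrity, was 1.62 ± 0.20 against 1.51 ± 0.25 on the log2 scale (exact permutation test, two-sided, p = 0.5). On Spdef -/- replicate 3 the Y-linked Eif2s3y read 57.9, against 301 to 566 on the other arrays, although each pool was labelled as male and female. Ddx3y, also Y-linked, read 413, 494 and 542 in Spdef +/+ and 332, 303 and 180.2 in Spdef -/- (limma adjusted p = 0.030), and Kdm5d, likewise Y-linked, was lower on every Spdef -/- array (141 to 170.5 against 33.2 to 131; adjusted p = 0.094). The part of this in the clock gene differences was not tested. Without Spdef -/- replicate 3, of the 9 genes other than Usp2, 6 were called lower and 1 higher, Per1 being the call that was lost, where 23.0% of all tested genes were called lower and 15.3% higher. Spdef +/+ replicate 2 stood out in Krt12, a corneal keratin, at 5367 against 431 to 1992 elsewhere. It also stood out in Scd1, listed as a lacrimal and meibomian gland marker, at 3573 against 149 to 283 elsewhere. Without Spdef +/+ replicate 2, 6 of the 9 were called lower and 1 higher, where 2085 and 1425 of all 11899 tested genes were.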

How the data were processed

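Labels put 3 arrays in each genotype. The intensity values are dChip signals that the authors made and deposited, linear, 1 per probe set and array. For the normalization, background method and call algorithm the sources used here give nothing. The authors deposited a detection call (Present, Marginal or Absent), of the kind other than numbers, for each. In the authors' deposited comparison of 153 probe sets, folds and differences are score values and p-values are unadjusted; its 6 per-sample columns were not used. The deposited series value table held the same intensity values (0 differed).

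Probe sets took symbols from the RefSeq gene table of GRCm38.p6 by gene ID or accession (36909 probe sets, 18096 genes). Signals were floored at 1 before taking log2. Tested were probe sets with 1 symbol, Present on at least 3 of 6 arrays (21727); the brightest stood for its gene (11899 genes). Spdef -/- was set against Spdef +/+ in limma 3.58.1 under R 4.3.3 (lmFit, eBayes, 2-sided, Benjamini-Hochberg adjustment, threshold 0.05). The median residual SD was 0.139 (log2); precision is limited by the number of arrays. Pools are labelled biological replicates. The procedure was tested on simulated data.

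Members and lists were chosen with earlier results of these data known. Named are all members, any other clock gene, up to 4 called genes of smallest p from each cue or marker list (the 2 brightest where none was called), Spdef, Muc5ac and Eif2s3y. Where outside this rule, Fkbp5, Sgk1, Zbtb16, Pdk4, Dusp1, Errfi1, Mt1, Mt2, Pde4d, Nr4a2, Krt12 and Scd1 were named after their values were seen. The same holds for further marker or sex-linked genes (Cma1, Krt19, Muc1, Krt5, Itgb4, Dcn, Itgax, Ddx3y, Kdm5d). Some results are not reported here. Alternatives varied the filter, scaling, floor, pseudocount, model, probe set choice and arrays.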

Additional observations from a re-analysis of the deposited data

How the results depend on the processing

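No called result named here changed sign; the uncalled Arntl difference went from 0.26 to -0.09 without Spdef -/- replicate 1, and Bhlhe40, Wee1 and other uncalled values near 0 also changed sign. Of 170 values of the 9 genes other than Usp2 over the alternatives, 152 stayed on the same side of the threshold and 18 lost the call, those of Per1, Per2, Nr1d2 and Cry1; the cause was not tested. The 152 include alternatives that could not change a difference of these genes. Among them are the series value table, which held the same values, and the floor of 16, which lay under all signals used for these genes. The changes of filter and of eBayes setting, the replicate block and probe sets taken singly also kept these differences. They could alter only the adjusted p of a tested gene. Centring on bacterial controls, chosen after the data were seen, left 682 of all genes called higher and 1417 lower, 5 of the clock set lower (4 without Usp2) and 0 higher, 2 other clock genes higher and 5 cue-responsive genes higher. With no filter on dim probe sets 0 of the clock set were called higher. Probe sets taken singly gave 2908 higher and 4361 lower, there being more of them to test. Array weights gave 8 cue-responsive genes lower. Leaving out each array in turn gave 1850 to 2734 of all genes lower (1850 without Spdef +/+ replicate 1) and 0 to 1 of the clock set higher.

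Same-numbered arrays deviated together at correlations of -0.01, -0.09 and -0.08, so the numbers do not pair the arrays; with the replicate number as a block, 1473 genes were called higher and 2200 lower, and of the 9 genes other than Usp2 7 were called lower and 1 higher. Groups of 3 arrays limit the precision, and a gene Present on as few as 3 of 6 arrays is limited by signal over background.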
